A study of Mus musculus with 8 samples.

Results

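Cells import cystine, reduce it to cysteine and join it with glutamate and glycine to make glutathione, the main small thiol of the cell. The 10 genes described here encode that route in mouse: the cystine importer (Slc7a11, Slc3a2), the enzymes that build and regenerate glutathione (Gclc, Gclm, Gss, Gsr), and enzymes that take it apart and recycle its parts (Ggct, Chac2, Ggt1, Oplah). They were chosen by name, with earlier results of these data known, and all 10 stand in the deposited tables of 55492 genes. RNA was sequenced from Yumm5.2, a mouse melanoma line whose strain is given as C57B/6J, in 8 libraries: 4 of cultures given 4-OI, described as a permeable form of itaconate, and 4 of control cultures given DMSO, all cultured for 20 h. The abbreviation stands in this field for 4-octyl itaconate. The labels name no allele of the line and no dose. They report 4 experiments per condition without saying whether each was a culture of its own, so the spread behind the p-values is that between these samples and may be technical. In bulk RNA, fewer cells of a type and less RNA per cell cannot be told apart.

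As background, the antiporter that Slc7a11 and Slc3a2 form exchanges extracellular cystine for intracellular glutamate. Glutamate-cysteine ligase then carries out the rate-limiting step, and the transcription factor NRF2, released from KEAP1 by electrophiles, is a known inducer of several of these genes. Tumour cells that cannot import cystine are prone to ferroptosis, since the lipid peroxidase GPX4 uses glutathione, and the series title names ferroptosis resistance.

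Total counts ranged from 22962963 to 31361677 per library. Of the 7 melanocyte lineage markers examined, 6 fell below the filter on low counts, with Sox10, Tyr, Tyrp1, Dct and Mlana at 0 to 2 counts in every library, so the defining pigment genes were at or near 0. The marker that could be tested, Mitf, averaged 9.99 ± 0.536 CPM (counts scaled to a common library total) with 4-OI and 6.42 ± 0.415 CPM with DMSO (SD, n = 4 each). The 11 markers of leukocytes, endothelium and epithelium summed to 52 to 72 counts per 4-OI library and 51 to 81 counts per DMSO library.

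The genes of import, synthesis and regeneration rose with 4-OI. Slc7a11 and Gclm were 5.39-fold and 5.32-fold higher, Gsr and Gclc 2.20-fold and 2.12-fold, Gss 1.56-fold and Slc3a2 1.40-fold. Oplah was 1.19-fold higher, Ggct and Chac2 did not pass the test, and Ggt1 was at the limit of detection. In the edgeR quasi-likelihood test with Benjamini-Hochberg adjustment over 13531 genes, 7 of the 9 members tested were higher at an adjusted p under 0.05 and 0 were lower. Across all genes tested, 38.8% were called, 19.3% higher and 19.6% lower. In those 7 members every 4-OI library exceeded every DMSO library in CPM, as in 17.4% of all genes. In 0 members was every 4-OI library below every DMSO library, as in 18.0% of all genes. Log2 fold changes of the 9 members had a median of 0.64, beside 0.00046 over all genes, of which the middle 95% ran from -0.67 to 0.62. At 2-fold or more, 4 of the 9 members were called higher, against 0.99% of all genes. Because the members were chosen with earlier results of these data known, these shares are descriptive only.

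The upstream stretches of 3 members are shown first, because they are the members, apart from the scarcely detected Ggt1, whose listed promoters hold a known stress-response motif: Slc7a11 and Gclm, which were called higher, and Ggct, which was not called. The motifs were TGACNNNGC, the core of the antioxidant response element that NRF2 binds, and TGATGNAA, the element that ATF4 binds with C/EBP partners in the amino acid response. RefSeq promoters (GRCm38.p6, 250 bases before to 50 after the start) were found for 7 of the 10 members. Gclc, Gsr and Oplah had no entry in that table. Stretches are written 5′ to 3′ along the gene, and capitals mark matches on either strand.
Slc7a11, chr3:50443614-50443723, minus strand: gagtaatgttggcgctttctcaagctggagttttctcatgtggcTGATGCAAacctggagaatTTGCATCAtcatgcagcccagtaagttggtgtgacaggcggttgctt
Gclm, chr3:122245357-122245466, plus strand: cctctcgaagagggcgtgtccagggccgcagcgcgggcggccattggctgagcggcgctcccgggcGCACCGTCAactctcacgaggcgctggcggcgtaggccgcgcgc
Ggct, chr6:54992958-54993067, minus strand: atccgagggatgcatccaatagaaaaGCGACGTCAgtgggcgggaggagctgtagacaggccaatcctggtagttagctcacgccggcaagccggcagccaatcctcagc

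The Slc7a11 stretch, positions -110 to -1 before the start, holds 2 matches to TGATGNAA, at -66 to -59 on the gene's strand and at -47 to -40 on the opposite strand. Of 32851 mouse promoters of the same length, 3.97% hold this motif, and no other listed promoter of a member did. The Gclm and Ggct stretches cover -200 to -91. Each holds 1 match to TGACNNNGC on the opposite strand, at -134 to -126 in Gclm and at -174 to -166 in Ggct, and Ggct has another at 6 to 14 after its start. That motif stands in 12.4% of the promoters. No match of one motif overlapped a match of the other in these genes, and the listed promoters of Slc3a2, Gss and Chac2 held neither. The listed Slc3a2 promoter (chromosome 19, 8713848 to 8714147) lies inside the gene, away from its outer 5′ end at 8723369. Sequence at that end was not searched. Of 4 listed Ggt1 promoters, 3 held 1 match to TGACNNNGC. TGACNNNGC was present in a gene that was called (Gclm) and in one that was not (Ggct), and a match in letters is not a bound site. With no listed promoter for Gclc, Gsr and Oplah, whether motifs go with the calls was not tested.

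The fold changes of Slc7a11 and Gclm were close, and their order turned in some alternatives. With limma on log2(TPM + 1) the values were 2.31 for Slc7a11 and 2.46 for Gclm, and on log2(FPKM + 1) 2.29 and 2.46. The gap depended on the pseudocount, since log2(TPM + 0.1) gave 2.38 and 2.46. Without DMSO replicate 1 the log2 fold changes were 2.436 and 2.442 (edgeR). Slc7a11 encodes xCT, the light chain that carries out the exchange (GRCm38 chromosome 3, 49892526 to 50443614). It had 514, 502, 526 and 525 CPM in the 4-OI libraries, against 97.0, 93.4, 98.8 and 94.3 CPM in the DMSO libraries. The groups lay far apart and the libraries within each were close, with coefficients of variation of 2.15% with 4-OI and 2.56% with DMSO. On the log2 scale the fold change was 2.43 ± 0.027 (SE; edgeR adjusted p = 5.17e-23), at rank 27 among the genes called higher.

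Slc3a2 encodes the heavy chain 4F2hc (CD98), which anchors xCT and several other transporters in the plasma membrane (chromosome 19, 8706882 to 8723369). It had 254, 276, 252 and 248 CPM with 4-OI and 178, 182, 188 and 187 CPM with DMSO. All 4-OI libraries lay above all DMSO libraries, with replicate 2 the highest. Its log2 fold change of 0.49 (standard error 0.031, edgeR adjusted p = 1.47e-10) lay within the middle 95% of all genes.

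**Figure D1:**
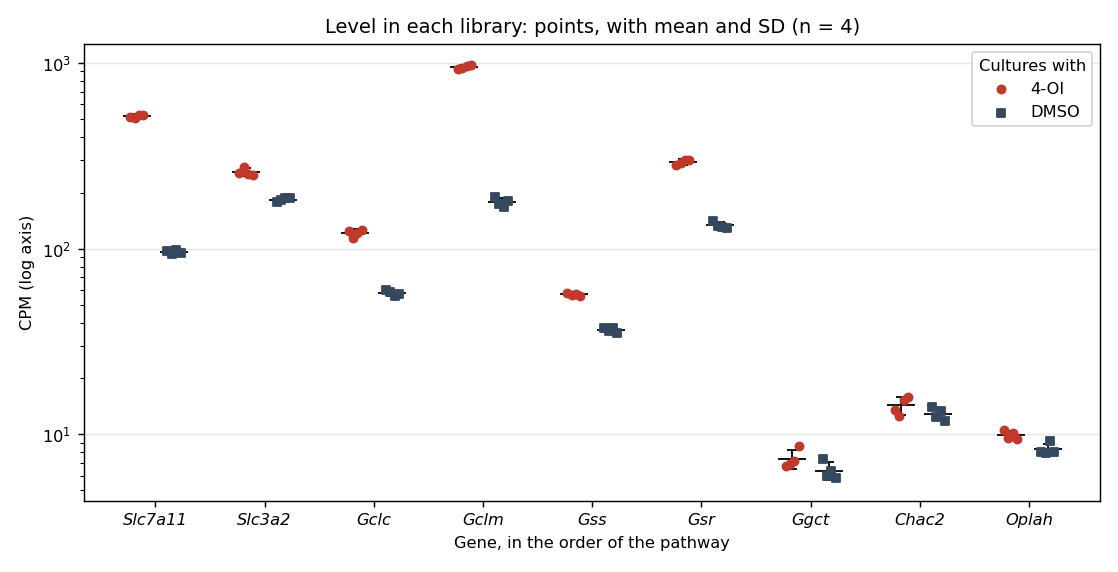
CPM of the 9 members that passed the filter in each library, on a log axis, with 4-OI libraries as circles on the left of each pair and DMSO libraries as squares on the right; bars give the mean and SD of 4 libraries. Groups are separate for Slc7a11, Slc3a2, Gclc, Gclm, Gss, Gsr and Oplah and overlap for Ggct and Chac2.

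Glutamate-cysteine ligase is a heterodimer. Gclc encodes its catalytic subunit (chromosome 9, 77754535 to 77794485) and had 125, 115, 122 and 126 CPM with 4-OI, against 59.5, 58.6, 55.3 and 57.0 CPM with DMSO. Gclm encodes the modifier subunit, which lowers the enzyme's need for glutamate and eases its feedback inhibition by glutathione (chromosome 3, 122245557 to 122270732). It had 922, 937, 957 and 977 CPM with 4-OI and 189, 175, 168 and 180 CPM with DMSO. Both genes were higher in every 4-OI library than in any DMSO library, and the modifier moved further than the catalytic subunit. The log2 fold changes were 2.41 for Gclm (standard error 0.032, edgeR adjusted p = 1.26e-21) and 1.08 for Gclc (standard error 0.034, edgeR adjusted p = 1.78e-15). Gclm shares 4.71% of its exon bases with Gm17494, a transcript of the opposite strand that was itself higher (log2 fold change 0.49). No source used here gives the strand setting of the counting, and reads of the shared bases cannot be told apart. The whole count of Gm17494 was 458 to 500 per 4-OI library and 253 to 376 per DMSO library, while Gclm had 23846 to 30483 counts with 4-OI and 3829 to 5623 with DMSO.

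Gss encodes glutathione synthetase, which adds glycine in the last step (chromosome 2, 155563181 to 155592810). It had 57.9, 56.4, 57.1 and 55.5 CPM with 4-OI and 37.3, 36.0, 37.3 and 35.3 CPM with DMSO, so the groups did not overlap. The log2 fold change of Gss was 0.64 ± 0.034 (SE; edgeR adjusted p = 9.90e-12). Gss shares exon bases with Acss2 on the opposite strand (6.68% of its own). Acss2 was not called, with a log2 fold change of 0.13 and an edgeR adjusted p of 0.128.

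Gsr encodes glutathione reductase, which turns the oxidised disulfide back into glutathione with NADPH (chromosome 8, 33652523 to 33698163). It had 282, 289, 302 and 302 CPM with 4-OI and 142, 133, 131 and 129 CPM with DMSO. The lowest 4-OI library was well above the highest DMSO library. The log2 fold change of Gsr was 1.14 ± 0.031 (SE; edgeR adjusted p = 1.36e-16).

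**Figure D2:**
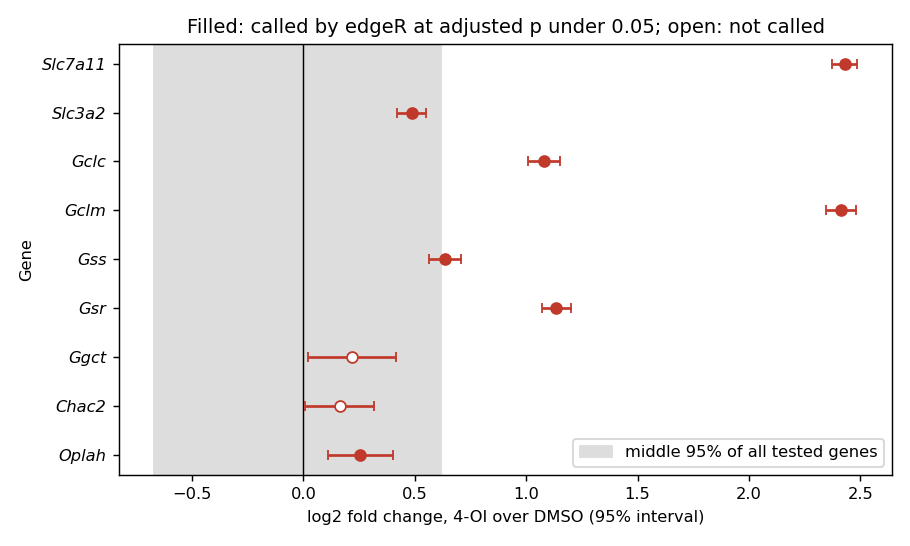
Log2 fold change of each tested member, 4-OI over DMSO, with its 95% interval; filled points were called by edgeR at an adjusted p under 0.05 and open points were not, and the grey band holds the middle 95% of all tested genes, from -0.67 to 0.62. Slc7a11 (2.43) and Gclm (2.41) stand apart from the rest, and Ggct, Chac2, Oplah and Slc3a2 lie inside the band.

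Of the 4 genes of glutathione breakdown and recycling, Ggt1 could not be tested and 1 of the others was called, beside 38.8% of all genes. Oplah encodes 5-oxoprolinase, which returns 5-oxoproline to glutamate (chromosome 15, 76296601 to 76328015). It had 10.6, 9.54, 10.2 and 9.39 CPM with 4-OI and 8.07, 7.90, 9.22 and 8.08 CPM with DMSO. In CPM the lowest 4-OI library was just above the highest DMSO library. In TPM the groups overlapped, with 6.19 in 4-OI replicate 4 and 6.29 in DMSO replicate 3. The log2 fold change of Oplah was 0.26 ± 0.069 (SE; edgeR adjusted p = 0.00571). On log2(TPM + 1) without a filter on low values the call ended (limma adjusted p = 0.103). Oplah shares 6.60% of its exon bases with Exosc4 and 5.07% with Smpd5 on the opposite strand, and Exosc4 was called higher too (log2 fold change 0.12, edgeR adjusted p = 0.0159). Exosc4 had 1162 to 1408 counts per 4-OI library and 972 to 1371 per DMSO library, while Oplah had 269 to 307 counts with 4-OI and 190 to 252 with DMSO. The part of these shared bases in the Oplah result was not tested.

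Ggct encodes gamma-glutamylcyclotransferase, which releases 5-oxoproline from gamma-glutamyl amino acids (chromosome 6, 54982580 to 54992950). It had 6.72, 6.91, 7.16 and 8.66 CPM with 4-OI and 7.35, 5.99, 6.32 and 5.80 CPM with DMSO. The groups overlapped, since DMSO replicate 1 exceeded 3 of the 4-OI libraries. The log2 fold change was 0.22 with a 95% interval of 0.02 to 0.41, and the edgeR adjusted p was 0.0753. Without DMSO replicate 1 the adjusted p was 0.0238 (log2 fold change 0.30), without 4-OI replicate 1 it was 0.0458 (0.26), and with no filter on low counts 0.0354 (edgeR in each case).

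Chac2 encodes a cytosolic enzyme that cleaves glutathione itself slowly (chromosome 11, 30976707 to 30986350). It had 13.6, 12.5, 15.3 and 15.9 CPM with 4-OI and 14.0, 12.4, 13.3 and 11.8 CPM with DMSO, again with overlap. Its log2 fold change was 0.16 with a 95% interval of 0.0080 to 0.32 and an edgeR adjusted p of 0.0899. The adjusted p was 0.0214 without 4-OI replicate 2 (log2 fold change 0.22), 0.0488 without DMSO replicate 1 (0.21) and 0.0379 with no filter (edgeR in each case). The upper bounds of both intervals lie below the log2 fold changes of Slc3a2 and Gss.

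Ggt1 encodes the cell-surface enzyme that starts the breakdown of extracellular glutathione (chromosome 10, 75561604 to 75586200). It had 2, 1, 1 and 1 counts in the 4-OI libraries and 0 counts in each DMSO library, and it did not pass the filter. A count of 0 allows up to 3 counts, or 0.0957 to 0.131 CPM in these libraries, counting error only, so both groups were at or under that limit and no fold is given. For Ggt1 CPM the exact permutation p (two-sided) was 0.0286, the smallest that 4 against 4 libraries allow; with 1 library left out the smallest possible is 0.0571.

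TPM, transcript abundances scaled for length and depth, allow levels of different genes to be compared. With 4-OI, Gclm was the most abundant member at 1283 ± 39.1 TPM, followed by Slc3a2 (246 ± 13.3 TPM), Gsr (179 ± 10.4), Slc7a11 (80.1 ± 0.751), Gclc (54.0 ± 2.12) and Gss (48.5 ± 0.743). With DMSO, Gclm led at 233 ± 17.1 TPM, followed by Slc3a2 (173 ± 3.85 TPM), Gsr (81.0 ± 4.59), Gss (30.8 ± 1.26), Gclc (25.4 ± 1.24), Chac2 (18.8 ± 1.56) and Slc7a11 (15.3 ± 0.554; SD, n = 4 throughout). Within each group, no 2 neighbours in these orders had overlapping ranges. Slc7a11 thus stood below Chac2 with DMSO and above Gclc with 4-OI. The 10 members summed to 1932 ± 49.0 TPM with 4-OI and 594 ± 21.9 TPM with DMSO (SD, n = 4), and Gclm made up 66.4% of that sum with 4-OI and 39.3% with DMSO.

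The ratios of the partners' transcripts in both heterodimers were higher with 4-OI. Gclm to Gclc stood at 22.0, 25.5, 23.9 and 23.7 in the 4-OI libraries and at 9.63, 8.57, 8.85 and 9.65 in the DMSO libraries (ratio of TPM). Slc7a11 to Slc3a2 stood at 0.321, 0.301, 0.339 and 0.345 with 4-OI and at 0.0920, 0.0880, 0.0895 and 0.0851 with DMSO. The light chain transcript therefore stayed below that of the heavy chain in all libraries, while the modifier of the ligase exceeded the catalytic subunit in all.

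SLC3A2 also pairs with other light chains. Slc7a11 made up 34.9%, 34.4%, 35.5% and 35.3% of the summed TPM of 6 such light chain genes with 4-OI, and 8.71%, 8.05%, 8.75% and 8.47% with DMSO. The sum was 229 ± 1.53 TPM with 4-OI and 181 ± 3.20 TPM with DMSO (SD, n = 4). Slc7a5, the light chain of the leucine carrier LAT1, was at 78.7 ± 3.19 TPM with 4-OI and 98.2 ± 2.22 TPM with DMSO, and its log2 fold change was -0.33 (edgeR adjusted p = 1.26e-08). Slc7a6 was at 69.2 ± 2.23 TPM with 4-OI and 66.1 ± 3.44 TPM with DMSO; the log2 fold change of its counts was 0.0081 (edgeR adjusted p = 0.868), and its sign turned under 3 of the alternatives. For each of the 3 quantities (both ratios and the share) the groups were separate, with a two-sided exact permutation p of 0.0286, the smallest possible, and 0.0286 after adjustment over the 3.

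**Figure D3:**
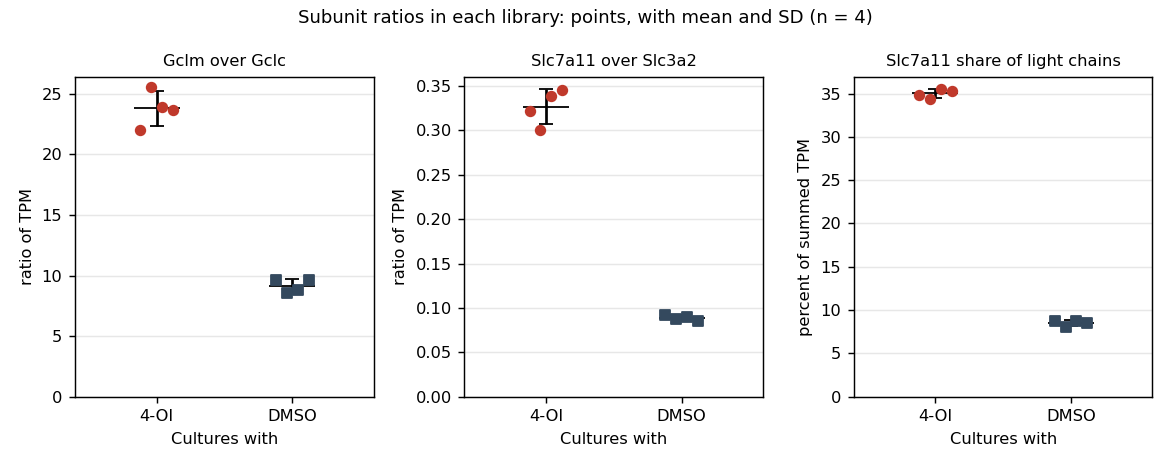
Ratio of Gclm to Gclc TPM, ratio of Slc7a11 to Slc3a2 TPM, and the percent of the summed TPM of 6 SLC3A2 light chain genes that was Slc7a11; circles are 4-OI libraries, squares DMSO libraries, and bars the mean and SD of 4 libraries. In the 3 panels the 4-OI means are 23.8, 0.327 and 35.02%, and the DMSO means 9.18, 0.0886 and 8.50%.

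The other way to obtain cysteine is transsulfuration, which makes it from methionine. Of 8 tested genes listed for the methionine cycle and transsulfuration, 1 was higher, 2 were lower and 5 were not called. Their median log2 fold change was 0.05. Mtrr, which reactivates methionine synthase, was higher (0.15), and Mat2a (-0.10), which makes S-adenosylmethionine, and Ahcyl1 (-0.10) were lower. Ahcyl1 and Ahcyl2 are listed for their likeness to Ahcy, which itself was not called (log2 fold change 0.02). Cth, whose product cystathionine gamma-lyase releases cysteine, had 112 ± 2.16 CPM with 4-OI and 106 ± 8.64 CPM with DMSO (SD, n = 4), and was not called (log2 fold change 0.08, edgeR adjusted p = 0.129). Without DMSO replicate 3 its adjusted p was 0.00694 (edgeR, log2 fold change 0.13). Ahcyl2 (0.14) was called without 4-OI replicate 2 (edgeR adjusted p = 0.0274) or DMSO replicate 2 (0.0210). On log2(TPM + 1) the calls of Mtrr and Mat2a ended (limma adjusted p = 0.877 and 0.0821). Cbs, which feeds Cth, had 3 to 9 counts in every library and was not tested. The share of genes called in either direction was 37.5% here and 38.8% over all genes.

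Among 13 genes that spend cysteine on other products, 3 rose, 1 fell and 9 did not pass the test, with a median log2 fold change of 0.02. The share called was 30.8%, beside 38.8% of all genes. Coasy (0.30) and Ppcs (0.32), enzymes of coenzyme A synthesis, and Nfs1 (0.18), the cysteine desulfurase of iron-sulfur cluster assembly, were higher, and Mpst (-0.18), a sulfurtransferase, was lower. Without 4-OI replicate 2, Pank2 and Pank3 were called too, which made 5 higher (edgeR adjusted p = 0.0282 and 0.0159). The call of Mpst ended on log2(TPM + 1) (limma adjusted p = 0.169). With no filter on TPM the calls of Nfs1 (0.113) and Ppcs (0.0649) ended too, which left 1 higher.

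Genes that supply glutamate and glycine went both ways, with 5 of 15 tested higher and 6 lower, and a median log2 fold change of -0.06 (73.3% called, beside 38.8% of all genes). Slc6a9, a glycine transporter (0.39), Glul, glutamine synthetase (0.28), and Psph (0.25) and Phgdh (0.11), a pair of enzymes of serine synthesis, were higher. Psat1 of the same route was lower (-0.07), as were Shmt1 (-0.16) and Shmt2 (-0.08), which turn serine into glycine. Slc1a2, a glutamate transporter, was called higher (log2 fold change 1.58) at a level of 0.900 ± 0.239 CPM with 4-OI and 0.298 ± 0.0905 CPM with DMSO (SD, n = 4). It had 22 to 35 counts per 4-OI library and 5 to 11 per DMSO library. The filter on low counts was passed only because of the 4-OI libraries, so this call is descriptive only. On log2(TPM + 1) with no filter the value of Slc1a2 was 0.27 and the call ended (limma adjusted p = 0.494). Glud1, glutamate dehydrogenase (-0.19), and Got1, cytosolic aspartate aminotransferase (-0.16), were lower. The glutamine carrier Slc1a5 was among the 4 not called. On log2(TPM + 1) the calls of Glul and Got1 ended (limma adjusted p = 0.0586 and 0.144). There 3 genes of this list were called higher and 2 lower, and on log2(FPKM + 1) 1 was called lower (limma). Whether Psat1, Shmt1 and Shmt2 kept their calls in these units was not looked at gene by gene.

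**Figure D4:**
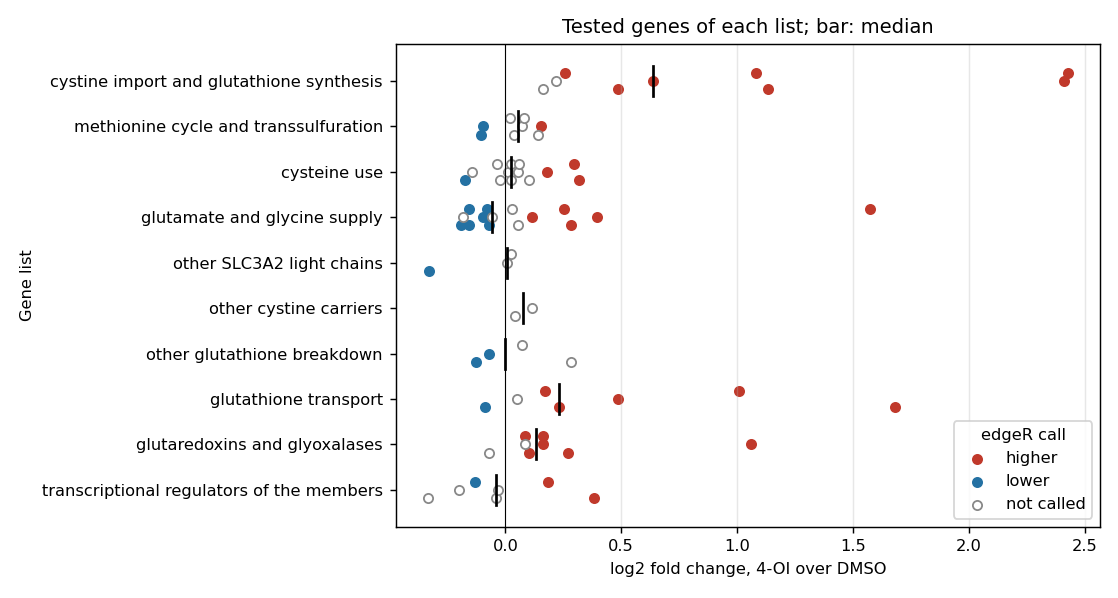
Log2 fold change, 4-OI over DMSO, of the tested genes of the cystine import and glutathione synthesis genes (top row) and of 9 lists of related genes; red points were called higher and blue points lower by edgeR at an adjusted p under 0.05, open points were not called, and the black bar is each list's median. The medians run from 0.64 in the top row to -0.06 for glutamate and glycine supply.

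Of the 10 other genes that break glutathione or its peptides down, 6 were below the filter and 2 of 4 tested were lower (beside 19.6% of all genes), the dipeptidase Cndp2 (-0.13) and the leucine aminopeptidase Lap3 (-0.07). Without 4-OI replicate 2 or 3 the call of Lap3 ended (edgeR adjusted p = 0.0724 and 0.0870). It also ended without DMSO replicate 3 or 4 (0.0738 and 0.0732), with scaling by library totals (0.0934) and with no filter (0.116). Of the 18 alternatives, 10 ended it, among them log2(TPM + 1) (limma adjusted p = 0.190). Chac1, which cleaves glutathione quickly and is a known ATF4 target, had 80.5 ± 2.68 CPM with 4-OI and 76.7 ± 6.01 CPM with DMSO (SD, n = 4). The 95% interval of its log2 fold change of 0.07 ran from -0.02 to 0.16 (edgeR adjusted p = 0.198). Leaving out DMSO replicate 3 gave 0.12 (edgeR adjusted p = 0.0281). Neither of the 2 other carriers of cystine or cysteine that could be tested, lysosomal Ctns (0.04) and melanosomal Mfsd12 (0.11), was called.

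Of the 9 related lists, transport of glutathione and its conjugates had the highest median log2 fold change, 0.23, with 5 of 7 tested genes higher and 1 lower (85.7% called, beside 38.8% of all genes). The plasma membrane pumps Abcc4, Abcc1 and Abcc5 had log2 fold changes of 1.68, 1.01 and 0.49. Abcc1, which exports glutathione and its conjugates, was at 400.4 ± 10.9 CPM with 4-OI and 199 ± 1.98 CPM with DMSO, and Abcc4 at 129.9 ± 6.13 CPM with 4-OI and 40.5 ± 1.23 CPM with DMSO (SD, n = 4). Of the mitochondrial carriers, Slc25a10 (0.23) and Slc25a40 (0.17) were higher, Slc25a11 (-0.09) was lower, and Slc25a39, a known carrier of glutathione into mitochondria, was not called (0.05). The call of Slc25a11 ended without 4-OI replicate 1 or 3 or DMSO replicate 4 (edgeR adjusted p = 0.0508, 0.0636 and 0.0989), with library totals (0.0758) and with DESeq2 (0.0890). That of Slc25a40 ended without 4-OI replicate 1 or DMSO replicate 3 or 4 (0.0588, 0.0860 and 0.0674). Both calls also ended with TPM and with FPKM (limma). Of the 18 alternatives, 10 ended the call of Slc25a11 and 7 that of Slc25a40.

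Glutaredoxins and enzymes of the glyoxalase and formaldehyde routes, which use glutathione as a cofactor, were higher in 6 of 8 cases, with 0 lower (75.0% called, beside 38.8% of all genes). Esd, which hydrolyses S-formylglutathione, led with 762 ± 18.0 CPM with 4-OI and 366 ± 5.48 CPM with DMSO (SD, n = 4; log2 fold change 1.06, edgeR adjusted p = 1.07e-17). Glrx (0.27), Glo1 (0.16) and Hagh (0.16) were higher by less. Glrx5 (-0.07) was lower without 4-OI replicate 2 (edgeR adjusted p = 0.0359).

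Genes of the factors known to control the members had a median log2 fold change of -0.04. Of 7 tested, Bach1, a repressor at antioxidant response elements (0.38), and Keap1 (0.18) were higher, Nfe2l2, which encodes NRF2, was lower (-0.13), and 4 were not called (42.9% called, beside 38.8% of all genes). Atf4 averaged 644 ± 18.9 CPM with 4-OI and 662 ± 8.34 CPM with DMSO (SD, n = 4) and was not called (log2 fold change -0.04, edgeR adjusted p = 0.209). Without 4-OI replicate 2, Atf3 (-0.27) and Trp53 (-0.56) were also called lower (edgeR adjusted p = 0.0251 and 0.0419). With all libraries their log2 fold changes were -0.20 and -0.34 (edgeR adjusted p = 0.0812 and 0.229). Trp53 was scarce, at 1.25 ± 0.430 CPM with 4-OI and 1.57 ± 0.119 CPM with DMSO (SD, n = 4). These are transcript levels, and the activity of the proteins was not measured.

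The profile of Slc7a11 over the 8 libraries was compared with those of 10067 genes at 5 CPM or more, each as log2 CPM centred on its DMSO mean. By Euclidean distance the nearest 5 were Gclm (0.16), Blvrb (0.19), Calr3 (0.34), Prl2c2 (0.36) and Angptl4 (0.37), with log2 fold changes of 2.41, 2.54, 2.95, 2.47 and 2.64. With 2 groups this distance mostly reflects the size of the difference between them, and Prl2c2 belongs to a family of near-identical genes that can share reads.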

How the data were processed

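The authors deposited 3 tables of 55492 genes: expected counts per gene (whole numbers in every cell), TPM and FPKM, both scaled for length and depth. Per the submitters' processing notes, the build was GRCm38 and the tools were RSEM 1.3.3, STAR 2.7.8a, MultiQC 1.7, cutadapt 2.3 and FastQC 0.11.8. Their roles, the annotation and the strand setting: not given in the sources used here. RSEM divides reads between similar genes by a model. PolyA libraries were sequenced as paired ends, per the labels. Columns were matched to libraries by description and groups taken from titles.

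Expected counts were tested with edgeR 4.0.16 (R 4.3.3): filterByExpr (minimum count 10), TMM, two-sided quasi-likelihood F test, Benjamini-Hochberg adjustment over 13531 genes. CPM is the count per filtered library total and TMM factor. Where a symbol stood on several rows (114 symbols), the most abundant kept it. Alternatives were RLE factors, library totals, no filter, DESeq2 1.42.0, a replicate block, limma 3.58.1 on log2(TPM + 1), log2(TPM + 0.1) or log2(FPKM + 1), a GC and length correction, and leaving out each library. Ratios used exact permutation tests in scipy 1.17.1. Total counts of 22962963 to 31361677 limit precision for rare transcripts. The procedure was tested on simulated counts. Members and lists were chosen with earlier results of these data known. Genes of other lists were named by size of change, up to 4 called per list. Where 5 or fewer were called in a direction, all of them were named. Cth, Chac1, Atf4, Slc7a6, Glud1, Got1, Psat1, Shmt1, Shmt2 and Mitf were added after their values were seen. So were genes whose call turned on 1 library and genes named as not called. Positions come from GENCODE M21 (GRCm38). Pairs of libraries within a group differed by 1.88 to 4.84 times sampling noise, so each counted once.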

Additional observations from a re-analysis of the deposited data

Results flagged for a closer look

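Oplah in DMSO replicate 3 stood apart from the other 3 DMSO libraries, at 9.22 CPM beside 7.90 to 8.08 CPM, a gap of 0.869 of the group's range. Without that library its log2 fold change was 0.30 (edgeR adjusted p = 0.00212), beside 0.26 with it. Of 24 groups of 4 libraries checked, 1 stood apart in this way, and chance gives about 1 in 20.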

How the results depend on the processing

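Slc7a11, Gclm, Gclc, Gsr, Gss and Slc3a2 were called higher under each of the 18 alternatives, with log2 fold changes of 2.29 to 2.45, 2.39 to 2.46, 1.06 to 1.11, 1.12 to 1.16, 0.62 to 0.66 and 0.45 to 0.51. With no filter on low counts Ggct (0.23) and Chac2 (0.17) were called as well, and with TPM and no filter Oplah (0.31) was not. Leaving out 1 library gave 0.13 to 0.30 for Ggct and 0.11 to 0.22 for Chac2.

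Fewer genes were called with limma on the normalised units, where the unit, the test and the number of genes tested changed together. With TPM, 1722 of 12246 genes were higher and 1552 lower, beside 2607 and 2646 of 13531 with edgeR. Of the other pathway genes, 6 were lower in place of 14. With a pseudocount of 0.1, 1719 genes were higher, 1546 lower and 5 of the pathway genes lower. With no filter on TPM (27140 genes tested) these values were 1362, 1284 and 5. With FPKM (11764 genes tested), 1437 genes and 5 pathway genes were lower. The cause was not tested. Slc7a6, which was not called, turned to -0.0045 with the GC and length correction, -0.0065 without 4-OI replicate 1 and -0.0053 without DMSO replicate 4. Leaving out 1 library gave at most 0.029, and FPKM gave 0.074, the highest of its 18 alternatives.

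Without 1 library the log2 ratio difference (4-OI minus DMSO) was 1.34 to 1.41 for Gclm to Gclc and 1.85 to 1.92 for Slc7a11 to Slc3a2, the light chain share differed by 26.4 to 26.7 percentage points, and Ggt1 by 0.0338 to 0.0490 CPM. The permutation p cannot then fall below 0.0571, so those calls end by construction.

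Whether replicate numbers pair the libraries cannot be settled from these values. Correlations of same-numbered deviations from group means were 0.069, 0.070, -0.014 and -0.016. Differently numbered pairs ran from -0.117 to 0.041. Of the 4-OI libraries, replicates 1 and 2 correlated best with their own number, and replicates 3 and 4 did not. With the replicate block 2526 genes were higher and 2618 lower, and the same count of 7 members was higher. In the paired ratio tests the differences were 1.37, 1.88 and 26.5 percentage points, with p = 0.125 (exact sign-flip permutation), the smallest that 4 pairs allow. Depth leaves Ggt1, Cbs and the other genes below the filter undecided.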

Other observations

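The tested genes nearest to each of the 9 tested members on the chromosome were taken, 1 on each side by midpoint. Of these 18 neighbours, 8 were called higher, 2 lower and 8 not called. The largest increase among them was a log2 fold change of 0.49, that of Gm17494, whose exons overlap those of Gclm, and the change largest in size was that of Pcdh18. This protocadherin gene, 135201 bases from Slc7a11, was lower (-0.77, edgeR adjusted p = 5.04e-16), as was Gm38357 on the other side (-0.48). Gsr lies between Ubxn8 (0.09) and Gtf2e2 (0.03), which were not called. Of the neighbours of Gclc, Lrrc1 was higher (0.31) and Elovl5 was not called (-0.02). Beside Ggct (0.22), Nod1 (0.37) and Gars (0.08) were higher, beside Chac2 (0.16), Asb3 (0.24) and Erlec1 (0.12), and beside Oplah (0.26), Grina (0.20) and Exosc4 (0.12). The share of neighbours called was 55.6%, beside 38.8% of all genes. These neighbours were looked at after the members' values had been seen.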
